A study of Mus musculus with 2 samples.

Results

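The genes described here are 47 members of the Wnt signalling pathway, chosen by name: 13 Wnt ligands, 11 receptors (9 Frizzled genes, Lrp5 and Lrp6), 9 secreted antagonists, 5 genes of the R-spondin and LGR arm, 5 genes for beta-catenin and the TCF/LEF factors, and 4 target and feedback genes. They were followed among the 32285 genes of 2 single-cell RNA libraries of mouse cornea and limbus, the ring of tissue between the clear cornea and the conjunctiva. One library came from 1 uninjured wild-type mouse and the other from 1 wild-type mouse whose eye had been injured with NaOH, an alkali burn. The labels do not state the strain, age or sex of the mice, or how long after the burn the tissue was taken. With 1 library per group there was no replicate check and no test, and every interval below covers counting error only.

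Wnt proteins are secreted, lipid-modified ligands that bind Frizzled receptors and the co-receptors Lrp5 and Lrp6 on nearby cells. In the canonical branch this keeps beta-catenin from being degraded, so that it can enter the nucleus and act with TCF/LEF factors on target genes, several of which (Axin2, Nkd1, Znrf3, Rnf43) feed back to restrain the pathway. Dickkopf, SFRP and Wif1 proteins block ligand or receptor outside the cell, whereas R-spondins, through LGR receptors, keep Frizzled proteins at the surface; in the cornea the pathway is known for its part in the upkeep of limbal epithelial stem cells.

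The uninjured library gave 6775 cells and the injured library 8346 after quality filters, and a median cell held 10162 and 10599 UMIs (unique molecular identifiers, each counted as 1 captured RNA molecule). Clusters were built without any Wnt gene and named from marker genes. The epithelial-like class held 5826 and 5770 cells, the stromal-like class 458 and 801, the mural-like class (cells around vessels) 58 and 87, and the Schwann-like class 55 and 97. Vascular endothelial-like cells (42 and 212) and macrophage or monocyte-like cells (16 and 342) were too few in the uninjured library for a firm comparison. Uninjured and injured cells mostly fell into different clusters of a class: in the stromal class, cluster 1, of the keratocyte subtype by its markers, held 420 uninjured and 2 injured cells, and cluster 2, of the fibroblast subtype, held 38 and 799. Class comparisons are therefore also comparisons of these cell states, and the state and the injury cannot be told apart. The libraries shared 15 cell barcodes, 13 of them among the analysed cells.

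Levels are given as CPM, the UMIs of a gene per 1000000 UMIs of the class in that library. Of the 47 members, 43 reached 20 UMIs over both libraries in at least 1 class. The other 4 did not: Wnt2b (8 UMIs in all), Wnt7a (3), Dkk1 (6) and Sfrp5 (21, of which 17 lay in the Schwann class). The class with the highest level over both libraries was assigned to the 37 members with at least 20 UMIs there. It was the stromal class for 16 members and the epithelial class for 11. It was the vascular endothelial class for 5 (Fzd6, Lrp5, Ctnnb1, Tcf7l1, Tcf7l2), the Schwann class for 3 (Wnt6, Fzd3, Nkd1), the mural class for 1 (Fzd4) and the neutrophil class for 1 (Fzd5).

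**Figure D1:**
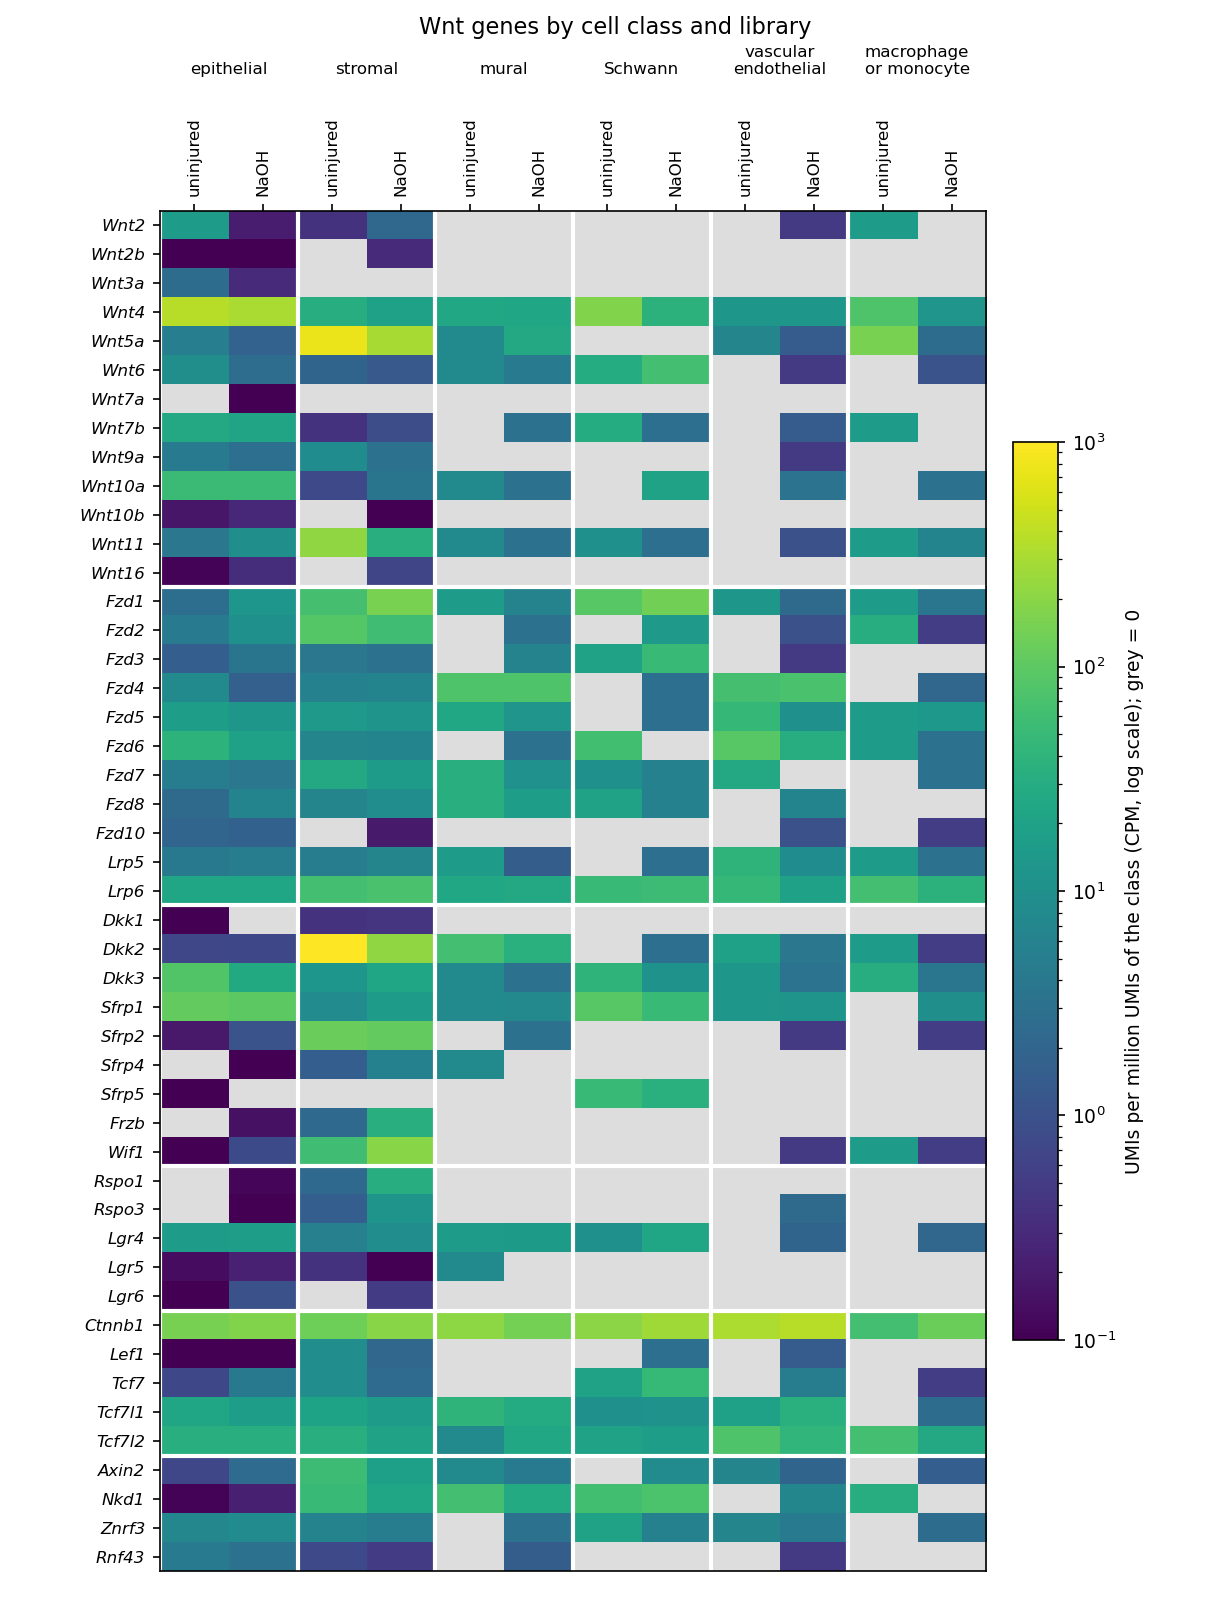
Level of all 47 Wnt genes in 6 cell classes of the uninjured and the NaOH-injured library, as CPM on a log colour scale, with grey for 0 UMIs and values beyond either end of the scale drawn at its end. White lines separate the roles (ligands, receptors, antagonists, R-spondin and LGR genes, beta-catenin and TCF/LEF factors, targets); the stromal columns hold the highest level of 16 members and the epithelial columns that of 11, and the classes at the right rest on few cells.

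The ligands divided between epithelium and stroma. Wnt2, Wnt3a, Wnt4, Wnt7b, Wnt10a and Wnt10b were highest in the epithelial class, and Wnt5a, Wnt9a and Wnt11 in the stromal class. Wnt9a, with 55 stromal UMIs, was less clearly placed. Its epithelial level was 50.1% of the stromal one in the uninjured and 92.0% in the injured library. Of the secreted antagonists, Dkk3 and Sfrp1 were highest in the epithelium and Dkk2, Sfrp2, Sfrp4, Frzb and Wif1 in the stroma, where both R-spondin members, Rspo1 and Rspo3, were also highest. RNA set free from broken cells can give low counts in cells that do not make it. As a measure of it, the 8 stromal markers together stood in the epithelial class at 0.0889% of their stromal level in the uninjured and 0.456% in the injured library, and the 8 epithelial markers in the stromal class at 5.57% and 4.39% of their epithelial level. A member whose level in a class was under 25% of that in its highest class was counted apart, since such a level could include free RNA.

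A member was called higher or lower in a class where it had at least 20 UMIs, the injured and uninjured CPM differed at least 2-fold and the 95% interval of the ratio excluded 1. In the stromal class 7 of 34 members counted were higher after injury (20.6%, against 9.74% of all genes counted there) and 8 were lower (23.5%, against 9.36%). Among the 26 members at 25% or more of their highest class, 6 were higher (23.1%, against 7.32%) and 7 lower (26.9%, against 8.76%). In the epithelial class 11 of 38 were higher (28.9%, against 14.0%) and 6 lower (15.8%, against 11.4%). Only 2 of the 22 epithelial members at 25% or more were higher (9.09%, against 6.77%) and 3 lower (13.6%, against 11.0%), shares near those of all genes. The median log2 ratio of injured over uninjured was -0.09 over the stromal members and 0.03 over the epithelial members, against 0.00 and 0.02 over all genes counted in those classes.

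The 250 bases before the RefSeq start site (build GRCm38.p6, 5′ to 3′ on the gene's strand) are shown for 5 members from different roles, chosen after their values were seen: a ligand (Wnt11), an antagonist (Dkk2) and a target (Axin2) called lower in the injured stroma, an antagonist called higher there (Wif1), and a ligand called lower in the injured epithelium (Wnt2). Capitals mark the only match to CTTTGAT or its reverse complement ATCAAAG, a core motif bound by TCF/LEF factors.
Wnt11: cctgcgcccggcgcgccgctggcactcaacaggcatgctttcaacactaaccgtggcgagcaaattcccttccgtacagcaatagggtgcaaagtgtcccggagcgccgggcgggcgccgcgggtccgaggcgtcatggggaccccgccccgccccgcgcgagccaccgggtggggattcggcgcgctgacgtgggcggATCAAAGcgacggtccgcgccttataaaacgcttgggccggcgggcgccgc
Dkk2: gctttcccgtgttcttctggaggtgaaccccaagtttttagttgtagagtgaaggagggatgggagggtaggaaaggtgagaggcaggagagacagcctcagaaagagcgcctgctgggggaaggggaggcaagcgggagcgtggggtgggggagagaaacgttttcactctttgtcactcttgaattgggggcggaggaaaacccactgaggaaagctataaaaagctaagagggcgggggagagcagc
Axin2: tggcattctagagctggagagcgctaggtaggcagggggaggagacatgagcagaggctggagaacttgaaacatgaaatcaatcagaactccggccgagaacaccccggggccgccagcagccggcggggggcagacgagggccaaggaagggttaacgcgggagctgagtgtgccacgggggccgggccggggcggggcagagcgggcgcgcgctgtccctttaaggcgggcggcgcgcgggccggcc
Wif1: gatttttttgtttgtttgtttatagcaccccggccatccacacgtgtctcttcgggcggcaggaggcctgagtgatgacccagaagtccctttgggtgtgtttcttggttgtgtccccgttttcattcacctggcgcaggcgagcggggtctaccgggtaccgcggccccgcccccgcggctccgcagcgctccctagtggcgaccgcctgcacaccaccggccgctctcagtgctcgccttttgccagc
Wnt2: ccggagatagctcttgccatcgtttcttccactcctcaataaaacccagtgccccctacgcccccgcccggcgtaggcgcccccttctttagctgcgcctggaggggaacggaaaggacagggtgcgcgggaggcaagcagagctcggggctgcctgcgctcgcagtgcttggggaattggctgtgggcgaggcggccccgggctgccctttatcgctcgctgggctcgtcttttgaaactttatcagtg
The windows lie at chr7:98834862-98835111 (Wnt11, plus strand), chr3:132085042-132085291 (Dkk2, plus strand), chr11:108920099-108920348 (Axin2, plus strand), chr10:121033754-121034003 (Wif1, plus strand) and chr6:18030446-18030695 (Wnt2, minus strand). The Wnt11 match starts at position -51 from the start site, and a second RefSeq Wnt11 start holds none. RefSeq promoters, each of 300 bases that include 50 after the start, were in the table for 32 of the 47 members. Of their 40 promoters 1 held CTTTGAT on either strand, beside 1225 of all 32851 (3.73%), and 1 (that of Dkk1) held the related CTTTGAA or TTCAAAG, which shares its first 6 letters, beside 1687 of all (5.14%). A match is a run of letters, not a measured binding site.

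The 3 ligands that were highest in the stroma were each called lower in the injured class. Among all genes at 25% or more of their highest class there, 8.76% were called lower. Only Wnt5a had enough UMIs for a ratio within cluster 2, the stromal cluster that both libraries share, though they hold its sub-clusters unequally (below). Wnt5a, which mostly signals without beta-catenin, stood at 775 CPM (2000 UMIs) in the uninjured and 297 CPM (3003 UMIs) in the injured stromal class, 2.61-fold lower (95% interval 2.46 to 2.76). Within cluster 2 it was higher after injury, at 72.2 CPM (8 UMIs) and 297 CPM, a ratio of 4.12 (2.09 to 9.55). Wnt11, a relative of Wnt5a in function, was at 221 CPM (569 UMIs) and 33.2 CPM (335 UMIs), 6.65-fold lower (5.80 to 7.64). Wnt9a, a canonical ligand, was rare, at 8.92 and 3.17 CPM from 23 and 32 UMIs, 2.82-fold lower (1.57 to 4.96), and it was no longer called in cells thinned to 1000 UMIs (log2 ratio -1.09) or from the mean of per-cell CPM (-0.76). Of the 6 member ligands counted in the stroma only Wnt10a was called higher, from 2 and 36 UMIs at 5.62% of its epithelial level. Without 27 injured cells with epithelial keratins (sub-cluster S7) Wnt10a was no longer called, at a log2 ratio of 0.33. Outside the members, the ligand Wnt5b was called higher in the stroma, at a log2 ratio of 1.85, and in the epithelium, at 2.14. Among cells thinned to 3000 UMIs, which leaves out 56 uninjured and 26 injured stromal and 681 and 133 epithelial cells, 81.3% of uninjured and 49.3% of injured stromal cells held a Wnt5a UMI, beside 1.40% and 0.319% of epithelial cells. Before thinning the stromal shares were 86.7% and 81.2%, at median depths of 5725 and 12005 UMIs, and the epithelial shares 5.80% and 2.13%, at 10839 and 11660 UMIs. For Wnt11 the thinned stromal shares were 44.5% and 9.81%, and 59.0% and 33.1% before thinning. The epithelial Wnt11 shares were 1.11% and 2.86% thinned, and 4.41% and 12.3% before.

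Epithelial ligands behaved in 2 ways. Wnt2, a canonical ligand, was at 15.5 CPM (1150 UMIs) in the uninjured epithelial class and at 0.199 CPM (16 UMIs) in the injured one, 77.7-fold lower (47.7 to 136). Wnt3a, another canonical ligand, was at 2.57 CPM (191 UMIs) and 0.311 CPM (25 UMIs), 8.26-fold lower (5.43 to 13.1). By contrast Wnt4, Wnt7b and Wnt10a kept similar levels. Wnt4 was at 365 and 308 CPM, Wnt7b at 26.0 and 21.5 CPM and Wnt10a at 53.6 and 53.1 CPM, with fold differences of at most 1.21 and a Wnt10a ratio of 0.99 (0.95 to 1.03). Wnt2 UMIs were found in 15.9% of uninjured and 0.243% of injured epithelial cells (4.82% and 0.124% after thinning to 3000 UMIs), beside 0.218% and 1.75% of stromal cells (0.249% and 0.645% after thinning). Wnt6, highest in the Schwann class, was 3.56-fold lower in the injured epithelium (9.44 and 2.65 CPM), and Wnt9a was at 4.47 and 2.91 CPM there. Wnt5a was at 5.18 and 1.79 CPM in the epithelium, 2.89-fold lower, at under 1% of its stromal level. Wnt16, called higher from 8 and 27 UMIs, and Wnt10b, from 13 and 22, were both at most 0.336 CPM.

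Of the 7 receptor members at 25% or more of their highest class in the stroma, 1 was higher (against 7.32% of all such genes) and none lower (against 8.76%). Fzd1 was at 65.1 CPM (168 UMIs) in the uninjured and 156 CPM (1580 UMIs) in the injured stroma, 2.40-fold higher (2.05 to 2.83), but at 208 and 157 CPM within cluster 2, a ratio of 0.75 (0.50 to 1.19). Fzd2 and Fzd7 were somewhat lower after injury, at 88.8 and 60.2 CPM and at 26.0 and 15.4 CPM. The co-receptor Lrp6 was at 63.6 and 71.9 CPM, with a ratio of 1.13 whose interval (0.95 to 1.35) includes 1. Fzd5, Fzd8 and Lrp5 ranged from 5.04 to 14.7 CPM, and the intervals of their ratios all included 1. In the epithelium Fzd6 was at 38.2 and 19.4 CPM, 1.97-fold lower (1.85 to 2.10) and so just short of the 2-fold limit. Fzd5 was at 17.7 and 13.1 CPM there, Lrp5 at 4.12 and 4.71, Lrp6 at 22.8 and 22.1 and Fzd10 at 2.01 and 1.76.

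Several receptors that were highest outside the epithelium were called there too, each at under 25% of its highest class. Of 11 receptors counted in the epithelium 4 were higher (36.4%, against 14.0% of all genes) and 1 lower (9.09%, against 11.4%). None of the 5 at 25% or more of their highest class was called, against 6.77% and 11.0% of all such genes. Fzd1 was at 2.83 and 12.6 CPM in the epithelium, Fzd2 at 4.29 and 10.2, Fzd3 at 1.55 and 3.59 and Fzd8 at 2.41 and 6.44, each 2.32-fold to 4.46-fold higher after injury, and Fzd4 was at 8.21 and 1.69 CPM, 4.85-fold lower. Fzd2 was no longer called in cells thinned to 1000 UMIs, at a log2 ratio of 0.95. Within cluster 3, which both libraries share, Fzd3 went the other way, at 21.2 and 5.34 CPM, a ratio of 0.25 (0.14 to 0.46). The epithelial level of Fzd1 was 4.34% and 8.06% of its stromal level in the 2 libraries, and that of Fzd2 4.84% and 17.0%, beside the 0.0889% and 0.456% of the stromal markers. The part of free RNA in these calls was not tested.

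The stromal antagonists did not move together. Dkk2, a Dickkopf protein that binds Lrp5 and Lrp6, was at 1008 CPM (2599 UMIs) in the uninjured and 219 CPM (2210 UMIs) in the injured class, 4.61-fold lower (4.35 to 4.88). Wif1, which binds Wnt ligands directly, was at 59.3 CPM (153 UMIs) and 195 CPM (1974 UMIs), 3.29-fold higher (2.79 to 3.91). Frzb, also called Sfrp3, was at 2.33 CPM (6 UMIs) and 32.5 CPM (328 UMIs), 14.0-fold higher (6.34 to 38.3). So 3 stromal antagonists were called higher (Frzb, Wif1 and Sfrp4) and 1 lower (Dkk2) of the 6 at 25% or more, against 7.32% and 8.76% of all such genes. Sfrp4 rested on 4 and 57 UMIs (1.55 and 5.64 CPM), and without the sub-clusters S2, S3 and S7 described below its log2 ratio was 0.24 and it was no longer called, nor in cells thinned to 1000 UMIs (0.91). After thinning to 3000 UMIs, 86.6% of uninjured and 41.9% of injured stromal cells held a Dkk2 UMI (88.0% and 73.4% before), beside 0.194% and 0.284% of epithelial cells (0.858% and 0.953% before). Wif1 went the other way, in 15.4% and 34.6% of thinned stromal cells (22.5% and 56.2% before), beside 0.0194% and 0.248% of epithelial cells (0.0858% and 1.01% before).

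Sfrp2, a secreted Frizzled-related protein, was at 120 CPM (310 UMIs) and 108 CPM (1093 UMIs) in the stromal class, a ratio of 0.90 (0.79 to 1.02), which covered sub-clusters that went opposite ways (below). In the epithelium Dkk3, a divergent Dickkopf member, was at 83.0 CPM (6166 UMIs) and 26.5 CPM (2131 UMIs), 3.13-fold lower (2.98 to 3.29). Sfrp1 was at 108 and 97.7 CPM there. The epithelial calls of Wif1 (0.0673 and 0.784 CPM) and Sfrp2 (0.188 and 1.05 CPM) as higher rested on levels of 0.113% and 0.401% of the stromal level for Wif1 and 0.157% and 0.967% for Sfrp2, close to those of the stromal markers.

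**Figure D2:**
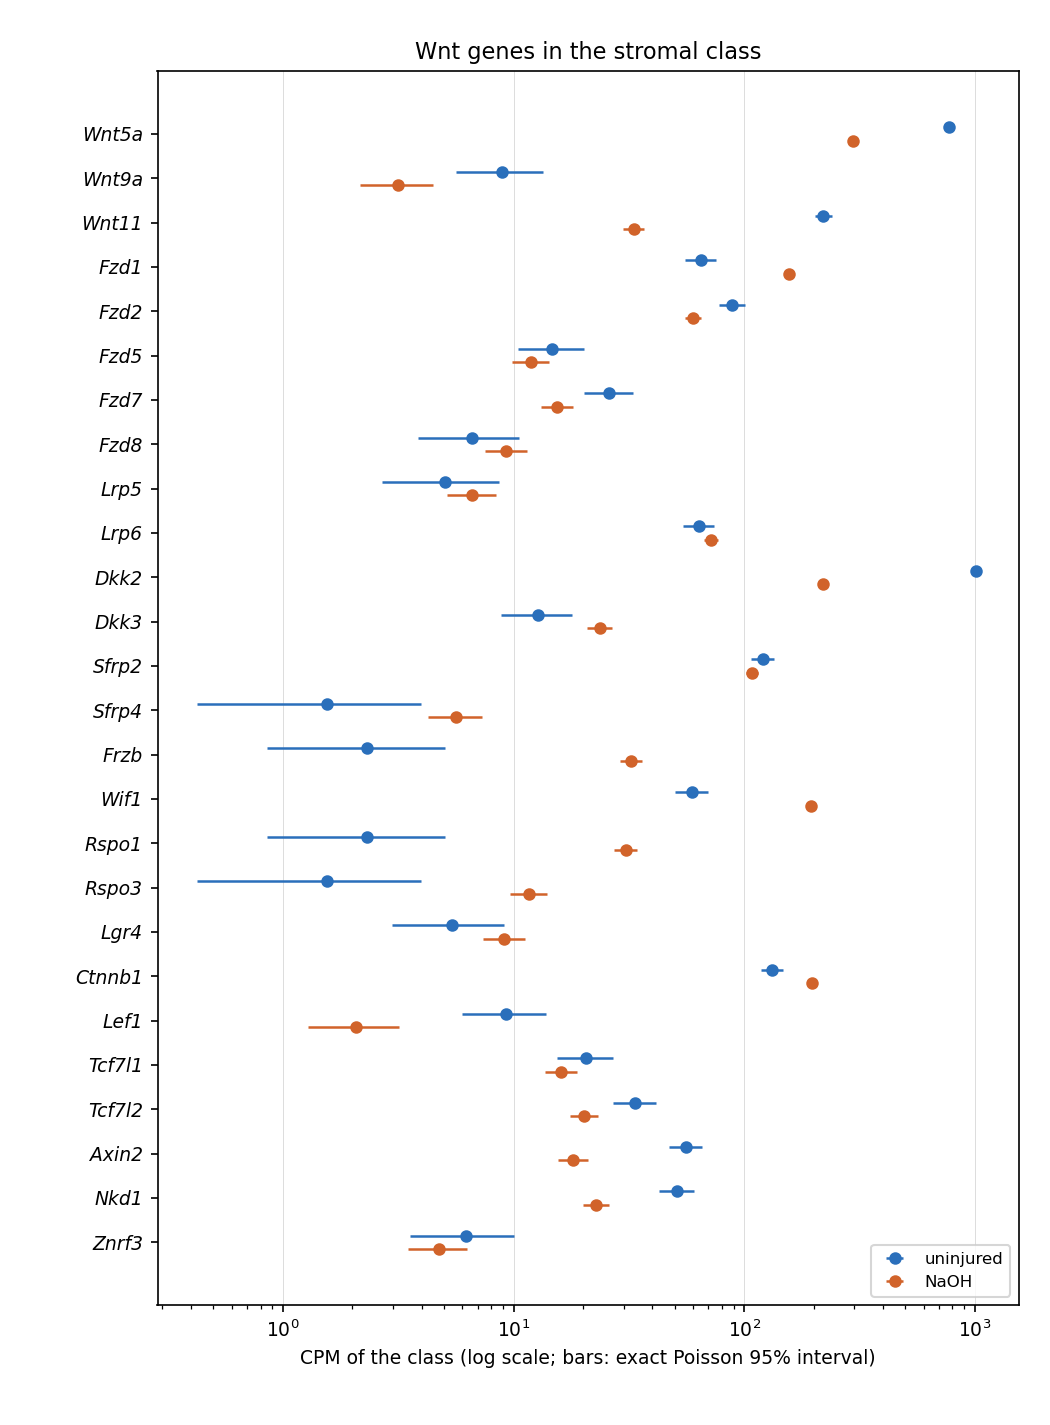
Levels in the stromal class of the members at 25% or more of their highest class, as CPM on a log axis, in the uninjured (blue) and NaOH-injured (orange) library; points are the class level and bars its exact Poisson 95% interval. Dkk2, Wnt5a, Wnt11, Axin2 and Nkd1 lie to the left after injury, and Fzd1, Wif1, Frzb, Rspo1 and Rspo3 to the right.

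Both R-spondins were rare in the uninjured stroma. Rspo1 was at 2.33 CPM (6 UMIs) there and 30.7 CPM (310 UMIs) in the injured stroma, 13.2-fold higher (5.99 to 36.2). Rspo3 was at 1.55 CPM (4 UMIs) and 11.7 CPM (118 UMIs), 7.53-fold higher (2.87 to 28.1), and was no longer called in cells thinned to 1000 UMIs, at a log2 ratio of 1.18. Rspo1 UMIs were in 1.24% of uninjured and 10.7% of injured stromal cells after thinning (1.09% and 26.2% before), beside 0 of 5145 uninjured and 0.0710% of injured thinned epithelial cells (0% and 0.156% before). The exact 95% interval of that 0 reaches 0.0717%. Of the receptors of these proteins, Lgr4 was at 15.5 and 17.5 CPM in the epithelium and 5.43 and 9.11 CPM in the stroma. Lgr5 had 32 UMIs in all. Lgr6 had 1 UMI in the uninjured and 78 UMIs in the injured epithelium (0.0135 and 0.971 CPM), a ratio of 24.0 with the single UMI set to 3 and an interval of 12.6 to 2885; it was found in 1.18% of injured epithelial cells (0.355% after thinning), beside 0.624% of injured stromal cells (0% after thinning).

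Beta-catenin itself, Ctnnb1, was at 149 and 173 CPM in the epithelium and at 132 and 197 CPM in the stroma, a stromal ratio of 1.49 (1.33 to 1.68). Its messenger level does not report on the protein, which is controlled by degradation. Of the factors that act with it, Lef1 was at 9.30 CPM (24 UMIs) in the uninjured and 2.08 CPM (21 UMIs) in the injured stroma, 4.48-fold lower (2.39 to 8.45). Tcf7 was at 9.30 and 2.47 CPM in the stroma, 3.76-fold lower (2.06 to 6.86), and at 0.740 CPM (55 UMIs) and 4.20 CPM (337 UMIs) in the epithelium, 5.67-fold higher (4.25 to 7.68). In both classes Tcf7 was under 25% of its level in the Schwann class, its highest, which rested on 19 UMIs. In cells thinned to 1000 UMIs neither Lef1 nor Tcf7 was called in the stroma, each at a log2 ratio of -0.82. Tcf7l2 was at 33.7 and 20.2 CPM in the stroma, and at 33.7 and 32.3 CPM in the epithelium. Tcf7l1, mostly a repressor, was at 20.5 and 16.1 CPM in the stroma and at 22.6 and 17.0 CPM in the epithelium.

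Of the feedback targets, Axin2 and Nkd1 were called lower in the injured stroma. Axin2, a scaffold of the complex that degrades beta-catenin and a standard readout of canonical signalling, was at 55.8 CPM (144 UMIs) and 18.1 CPM (183 UMIs), 3.08-fold lower (2.46 to 3.85). Nkd1, an inhibitor of Dishevelled, was at 51.2 CPM (132 UMIs) and 22.8 CPM (230 UMIs), 2.25-fold lower (1.80 to 2.80). Znrf3, a ligase that removes Frizzled proteins from the surface, was at 6.20 and 4.75 CPM with an interval that includes 1, so 2 of the 3 stromal targets counted were called lower (against 8.76% of all such genes) and none higher (against 7.32%). Within cluster 2 the ratio was 0.67 (0.22 to 3.26) for Axin2 and 0.63 (0.24 to 2.34) for Nkd1, and both intervals include 1. Thinned to 3000 UMIs, 15.9% of uninjured and 5.16% of injured stromal cells held an Axin2 UMI (24.9% and 18.2% before), beside 0.175% and 0.781% of epithelial cells (0.824% and 3.33% before). In the epithelium Axin2 was at 0.700 CPM (52 UMIs) and 2.54 CPM (204 UMIs), 3.63-fold higher (2.66 to 5.02) at 1.25% and 14.0% of its stromal level. Rnf43, the partner of Znrf3, was at 4.32 and 3.06 CPM there and Znrf3 at 7.09 and 8.51.

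Other markers moved with these stromal results. In the stromal class the 4 keratocyte subtype markers summed to 7607 CPM in the uninjured and 437 CPM in the injured library, and the 5 fibroblast subtype markers to 1281 and 4657 CPM. Of the keratocyte markers, Aldh3a1 is also a corneal epithelial marker, and the same 4 summed to 10330 and 314 CPM in the epithelial class. Kera alone was at 3578 and 138 CPM in the stromal class. In that class the 8 epithelial markers summed to 1892 and 920 CPM and the 7 mural markers to 20.2 and 350 CPM, with every marker of both lists detected in each library. The part of these in the differences of the Wnt genes was not tested.

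Cluster 2, with 38 uninjured and 799 injured cells, was the only stromal cluster with at least 20 cells of each library, and several members did not follow the class there. Dkk2 was lower in it too, at 343 CPM (38 UMIs) and 219 CPM, a ratio of 0.64 (0.46 to 0.90) and short of 2-fold. Wif1 was higher, at 90.2 CPM (10 UMIs) and 196 CPM, a ratio of 2.17 (1.18 to 4.53). Thus Dkk2 and Wif1 kept the direction of the class, while Wnt5a, above, reversed. Sfrp4 also reversed, at 36.1 CPM (4 UMIs) and 5.65 CPM, a ratio of 0.16 (0.058 to 0.59). Dkk3 in the whole stromal class had 33 and 239 UMIs and a log2 ratio of 0.89, and was not called. Within cluster 2 it went the other way, at 81.2 CPM (9 UMIs) and 23.7 CPM, a ratio of 0.29 (0.15 to 0.65). Lrp6 was at 153 CPM (17 UMIs) and 71.8 CPM there, a ratio of 0.47 (0.29 to 0.81). Sfrp2 was at 2147 and 108 CPM, a ratio of 0.05 (0.044 to 0.058). No ratio is given for Wnt9a, Wnt11, Frzb, Rspo1, Rspo3, Lef1 or Tcf7 in cluster 2, where at least 1 library held under 3 UMIs. The 2 libraries did not hold the same cells of this cluster. The sub-clusters S4, S5 and S6 (below) held 331, 236 and 135 injured cells but only 1 uninjured cell, in S4. S2 and S3 held 23 and 6 uninjured cells. A ratio within cluster 2 is therefore also a comparison of different sub-clusters, whose part in it was not tested.

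Sub-clusters of the stromal class, which were described after seeing the data, show how the members varied within it. S0 (272 uninjured cells, led by Kera) and S1 (156 uninjured cells) held most of the uninjured class. S4 (331 injured and 1 uninjured cell), S5 (236) and S6 (135, led by Tagln and Acta2 with cycling genes) held most of the injured one. S2 (23 uninjured and 48 injured cells, led by Chad and Comp) and S3 (6 and 24, led by Clec3b) were shared, and S7 (27 injured cells) was led by epithelial genes such as Krt14 and Epcam. Dkk2 was at 1206 CPM in S0 and 596 CPM in S1, and between 134 and 309 CPM in S4, S5 and S6. Wnt11 was at 271 and 120 CPM in S0 and S1 and between 32.5 and 35.8 CPM in S4 to S6, so Dkk2 and Wnt11 were lower in each of the 3 main injured sub-clusters than in either uninjured one. Wnt5a was likewise at 855 and 675 CPM, against 196 to 411 CPM. Axin2 was at 52.4 and 70.9 CPM in S0 and S1, and at 14.3, 29.6 and 9.90 CPM in S4, S5 and S6. S2 was the only sub-cluster with at least 20 cells of each library: there Dkk2 was at 229 and 131 CPM, a ratio of 0.57 (0.31 to 1.09), and Fzd1 at 256 and 288 CPM, a ratio of 1.12 (0.67 to 1.96), and both intervals include 1.

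The members that were higher after injury were spread less evenly. Wif1 reached 372 CPM in S4 but 132 CPM in S5 and 48.3 CPM in S6, beside 42.4 CPM in S0 and 106 CPM in S1, so S6 lay between the uninjured sub-clusters. Fzd1 was at 26.2 CPM in S0 and 146 CPM in S1, and at 208, 147 and 86.7 CPM in S4, S5 and S6. Frzb was at 0.558 and 7.24 CPM in S0 and S1 and between 28.3 and 39.1 CPM in all of S4, S5 and S6. Rspo1 was at 0 and 8.69 CPM in the uninjured pair and between 13.5 and 42.4 CPM in the injured 3. Sfrp2 marked S2, at 3088 CPM (229 UMIs) in its uninjured and 1096 CPM (301 UMIs) in its injured cells, a ratio of 0.35 (0.30 to 0.42). Without S2, S3 and S7 the log2 ratio of Sfrp2 in the class was 1.25 and it was called higher, opposite to its ratio within S2. Of the 22 Wnt2 UMIs in the injured stroma, 16 lay in the 24 cells of S3, at 95.8 CPM (54.8 to 156), whereas its 6 uninjured cells held none. This choice of Wnt2 and S3 was made after their values were seen.

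**Figure D3:**
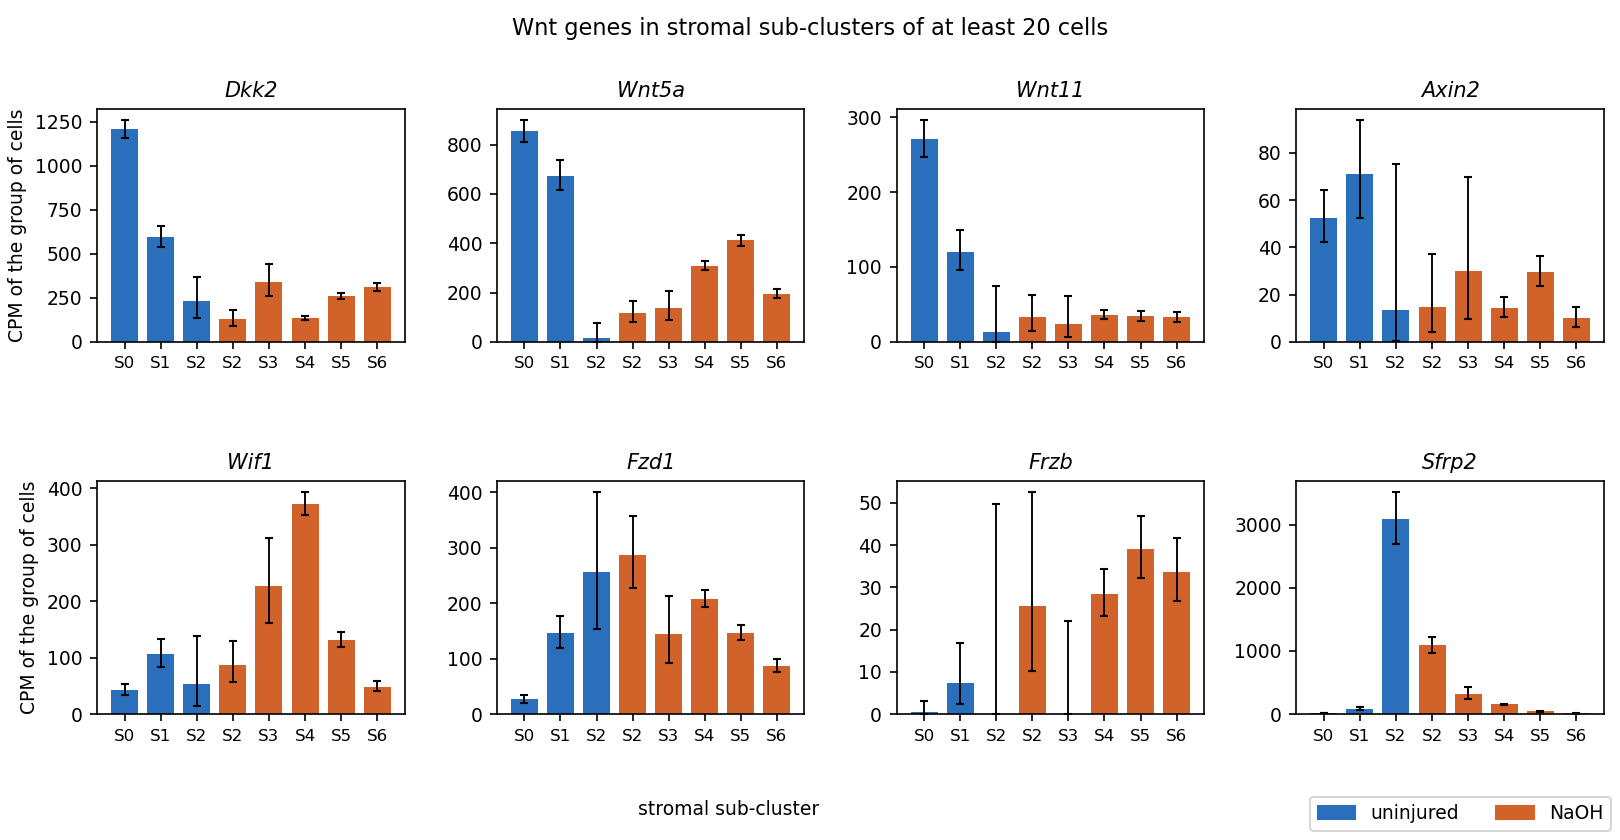
Levels of 8 members in stromal sub-clusters of at least 20 cells, in CPM of each group of cells, with uninjured cells in blue, NaOH-injured cells in orange and exact Poisson 95% intervals as bars; each panel has its own scale. Dkk2, Wnt5a and Wnt11 stand highest in the uninjured S0 and S1, Wif1 in the injured S4 and Sfrp2 in S2 of both libraries.

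Epithelial clusters, too, were mostly of 1 library. Uninjured cells lay mainly in clusters 0, 6, 8, 10 and 12, of the corneal subtype by their markers, and injured cells in clusters 3, 4, 5 and 18, of the limbal subtype, and 16, of the conjunctival subtype. The 5 corneal subtype markers summed to 34953 CPM in the uninjured and 465 CPM in the injured epithelial class, and the 5 limbal ones to 4927 and 17479 CPM. The limbal markers are not confined to limbal epithelium. They summed to 4701 and 5686 CPM in the stromal class, and 1 of them, Krt14, is also a general epithelial marker. A limbal subtype name therefore does not place the cells in the limbus. The part of this in the epithelial differences was not tested; clusters 3, 7, 11 and 16 held at least 20 cells of each library and allow a comparison within a cluster. Wnt2 was too sparse there for a firm one. In cluster 7, of the limbal subtype, it was at 8.36 CPM (27 UMIs in 310 uninjured cells) and at 0 UMIs in 45 injured cells, whose exact 95% interval reaches 10.0 CPM, so a difference was not detectable at this depth. In cluster 3 it was at 5.90 CPM (5 UMIs in 55 cells) and 0.109 CPM (1 UMI in 606 cells), and clusters 11 and 16 held none in either library. In the injured clusters 4, 5 and 18 it was at most 0.611 CPM, and in the 5 uninjured corneal clusters it lay between 5.93 and 23.7 CPM. Dkk3 was at 80.5 and 27.2 CPM in cluster 7, a ratio of 0.34 (0.16 to 0.63), but its intervals in clusters 3 and 16 included 1.

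Sfrp1, with a class ratio near 1, was lower after injury within each of 3 shared clusters. It was at 176 and 115 CPM in cluster 3, at 227 and 171 CPM in cluster 7 and at 76.2 and 52.1 CPM in cluster 16, with ratios of 0.65 (0.55 to 0.78), 0.75 (0.57 to 0.98) and 0.68 (0.52 to 0.92), all short of 2-fold. Wnt10a was strongest in cluster 7, at 154 and 136 CPM, and weak in cluster 11, at 2.51 and 3.26 CPM, and in cluster 16, at 15.8 and 16.1 CPM. Cluster 3 differed, with Wnt10a at 28.3 and 13.5 CPM, a ratio of 0.48 (0.31 to 0.77). Wnt6 was also highest in cluster 7 among epithelial clusters, at 38.4 and 21.8 CPM. Tcf7 was at 4.02 CPM (13 UMIs) and 19.0 CPM (7 UMIs) in cluster 7, a ratio of 4.73 (1.60 to 12.8). Axin2 was at 5.26 CPM (17 UMIs) and 13.6 CPM (5 UMIs) there, with an interval (0.75 to 7.30) that includes 1. The class-wide difference of Wnt11 in the epithelium, 3.85 and 9.97 CPM (2.59-fold higher, 2.26 to 2.98), had ratios of 0.58, 2.93 and 0.75 within clusters 3, 7 and 16, and each of these intervals included 1.

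**Figure D4:**
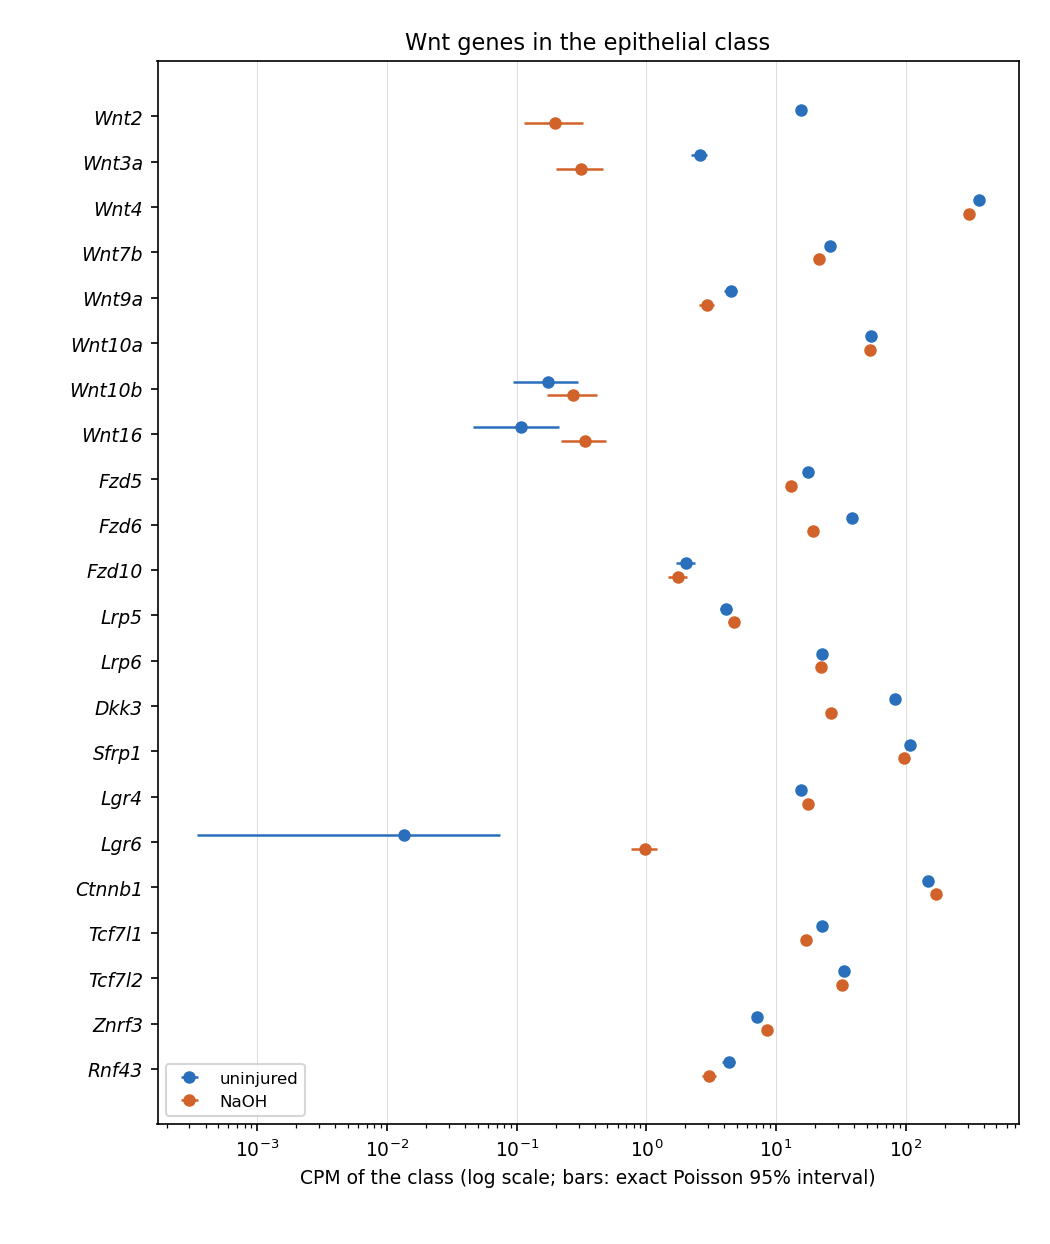
Levels in the epithelial class of the members at 25% or more of their highest class, as CPM on a log axis, in the uninjured (blue) and NaOH-injured (orange) library, with exact Poisson 95% intervals as bars. Wnt2, Wnt3a and Dkk3 lie to the left after injury and Lgr6 to the right, and Wnt4, Wnt10a, Lrp6 and Tcf7l2 nearly coincide.

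**Figure D5:**
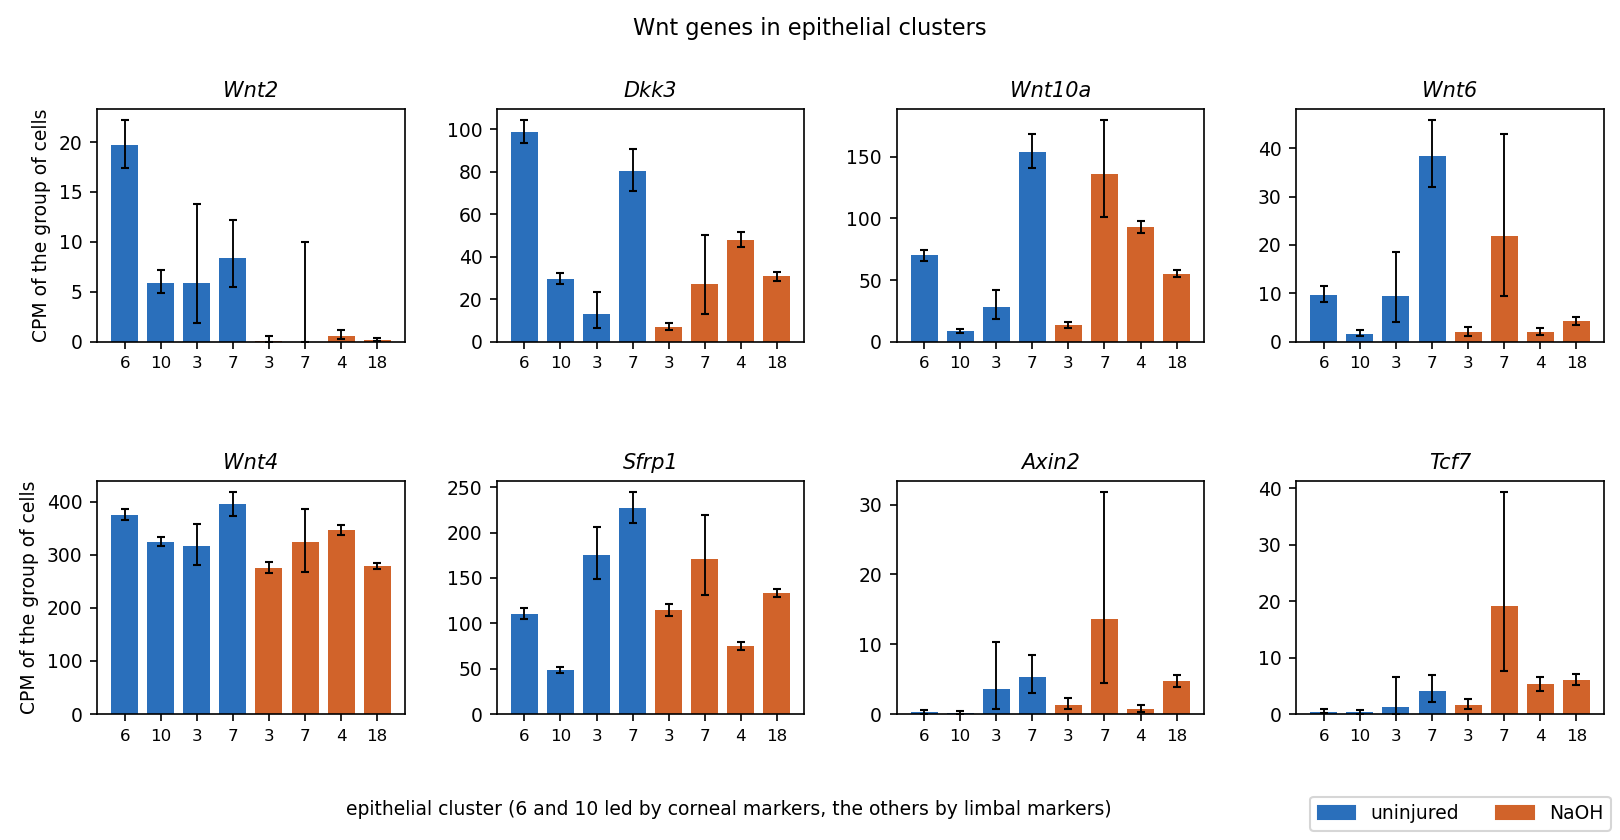
Levels of 8 members in 6 epithelial clusters, in CPM of the cluster with exact Poisson 95% intervals as bars; blue bars are uninjured and orange bars NaOH-injured cells, clusters 3 and 7 appear once for each library, and each panel has its own scale. Wnt10a, Wnt6, Axin2 and Tcf7 stand highest in cluster 7, and Wnt2 is at most 0.611 CPM in the injured clusters drawn, with an interval that reaches 10.0 CPM in cluster 7.

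In the small classes few members could be counted. Of 6 members with at least 20 UMIs in the mural class none was called, against 8.86% of all genes higher and 8.19% lower. Fzd4, the receptor of Norrin as well as of Wnts, was at 79.5 and 78.0 CPM there, and Nkd1 at 63.6 CPM (8 UMIs) and 27.5 CPM (18 UMIs), with an interval of the ratio of 0.18 to 1.15. The median log2 ratio of mural genes with at least 100 UMIs was 0.24, and scaling by it brought Nkd1 past the limits as lower, at a log2 ratio of -1.45, whereas in cells thinned to 1000 UMIs the log2 ratio was 0.39. The same median was 0.25 in the vascular endothelial and 0.26 in the macrophage or monocyte class. Of 8 members counted in the Schwann class none was higher, against 10.0% of all genes, and 1 was lower, against 5.48%. That 1 was Wnt4, at 172 CPM (17 UMIs) and 37.2 CPM (13 UMIs), which is below 25% of its epithelial level, in a class where the 8 epithelial markers summed to 11069 and 2845 CPM. Wnt6 was at 30.3 CPM (3 UMIs) and 62.9 CPM (22 UMIs) in Schwann-like cells, Fzd1 at 90.9 and 140 CPM, and Nkd1 at 60.6 and 74.4 CPM. The vascular endothelial class, with 42 uninjured cells, had 3 of 10 members lower and none higher, against 6.64% and 6.04% of all genes. These were Fzd6 (14 and 63 UMIs), Fzd5 (7 and 21) and Lrp5 (6 and 18), whereas Fzd4 was at 65.7 and 72.3 CPM and Ctnnb1 at 322 and 373 CPM. In this class the 5 lymphatic endothelial markers summed to 32.9 CPM (with Lyve1, Ccl21a and Mmrn1 at 0) and 1471 CPM, the 7 mural markers to 1151 and 112 CPM, the 8 epithelial markers to 3307 and 1008 CPM and the 5 cycling markers to 19.7 and 596 CPM; their part in the 3 calls was not tested. In the macrophage or monocyte class Wnt4 was the 1 member of 5 called lower, against 3.87%, and none was higher, against 2.86%, from 5 and 23 UMIs in 16 and 342 cells. Its level there was 4.24% of that in the epithelium, and the 8 epithelial markers summed to 4868 and 1369 CPM in this class; their part in the call was not tested.

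Other genes of the pathway, 74 in number, were counted by the same rule. In the stromal class 9 of 59 were higher and 8 lower after injury, against the 9.74% and 9.36% given above. Myc, a growth regulator and Wnt target, was at 20.5 and 175 CPM in the stroma, 8.52-fold higher (6.49 to 11.4). Ror1, a receptor for Wnt5a, was at 10.5 and 27.4 CPM, and Porcn, the enzyme that attaches the lipid to Wnts, at 12.8 and 32.6 CPM. Among genes at 20 CPM in 1 library and 25% of their highest class, those lower with the largest ratios were Gpc3, Apcdd1 and Serpinf1. Gpc3, a glypican, was at 29.5 and 6.43 CPM. Apcdd1, a membrane-bound Wnt inhibitor, was at 135 and 38.8 CPM, and Serpinf1 at 3488 and 1201 CPM. Notum, a secreted enzyme that removes the lipid from Wnts, was under 20 CPM in both libraries, at 15.1 CPM (39 UMIs) and 0.990 CPM (10 UMIs), 15.3-fold lower (7.49 to 34.3). In the epithelium Notum was called higher. It was named after its values were seen. Of 11 other target genes counted in the stroma, 3 were higher (Sp5, Myc and Cd44, 27.3%, against 9.74% of all genes). The 1 lower was Lrig1 (9.09%, against 9.36%). In the epithelium 17 of 58 were higher and 4 lower, against 14.0% and 11.4% of all genes. Of the 36 at 25% or more of their highest class 3 were higher and 4 lower, against 6.77% and 11.0%. Bambi, a decoy receptor of the TGF-beta family, was at 19.7 and 48.5 CPM there, Lrig1, a restraint on growth factor receptors, at 40.8 and 12.1 CPM, and Ccnd1, the cyclin D1 gene, at 304 and 141 CPM. In the mural class 1 of 26 was higher (Ccnd1, 4 and 132 UMIs) and 4 were lower (Bcl9l, Myc, Bambi and Jun), against 8.86% and 8.19%. In the Schwann class 3 of 22 were higher (Cthrc1, Nkd2 and Tcf4) and 1 lower (Myc), against 10.0% and 5.48%. Nkd2, the relative of Nkd1, was at 121 and 286 CPM there, and Cthrc1, a secreted protein that aids Wnt binding, at 30.3 CPM (3 UMIs) and 166 CPM (58 UMIs).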

How the data were processed

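The 2 libraries, 1 uninjured and 1 NaOH-injured mouse, were deposited as UMI count matrices of 32285 genes, which the authors made with Cell Ranger; the file headers give version 7.0.1, and the submitters' processing notes name the build GRCm38. No chemistry or annotation release is stated. Of 7490 and 9399 barcodes (85457541 and 108863350 UMIs), barcodes were kept from 300 genes and 500 UMIs upward if mitochondrial UMIs made up no more than 20%. Scrublet's automatic threshold marked 32 and 3 cells and was judged to have failed, so the highest scores were removed at 0.8% per 1000 barcodes (375 and 657 cells). Clustering in scanpy 1.11.5 used 2000 variable genes without any Wnt gene, 30 principal components, 20 neighbours and resolution 1, and no batch correction. Clusters were named from marker lists, with at least 3 markers detected; a shallow cluster of 315 uninjured and 2 injured cells stayed unnamed and was left out.

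Counts were summed per class and library. Intervals are exact Poisson (levels), conditional binomial (ratios) and Clopper-Pearson binomial (shares), all at 95%; a count under 3 was set to 3 for a ratio. UMIs and cells were treated as independent, and no variation between mice is covered. The rule for named genes gave values to members with at least 20 UMIs in a class and 25% of their level in the highest class. In the small classes not all of these are written out. Called members below that are described with that limit. Of the other pathway genes it named the 3 largest ratios in each direction among those at 20 CPM in 1 library and 25% of the highest class; others were named after their values were seen. Alternatives were other UMI minimums, fold limits, scalings, cell and doublet filters, clusterings and thinning. The members and lists were chosen with earlier results of these data known. Coordinates are from GENCODE M21 and start sites from RefSeq. The scripts were tested on simulated data.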

Additional observations from a re-analysis of the deposited data

Results flagged for a closer look

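Of the 47 members, 3 were called in opposite directions in the epithelial and the stromal class. The share of all genes called in opposite directions is not given here, so the 3 have no background beside them. Taken singly, 14.0% of all genes counted in the epithelium were higher and 11.4% lower, and 9.74% and 9.36% in the stroma. The difference between the classes was not tested, since each group has 1 library. Wnt11 had a log2 ratio of injured over uninjured of 1.37 in the epithelium and -2.73 in the stroma. For Tcf7 these were 2.50 and -1.91, and for Axin2 1.86 and -1.62. Over both libraries together, all 3 are below 25% of their highest class in the epithelium, where Axin2 stood at 0.700 and 2.54 CPM and Wnt11 at 3.85 and 9.97 CPM. In the injured library alone the epithelial Wnt11 level was 30.1% of the stromal one, beside 1.75% in the uninjured library. Tcf7 is below that limit in the stroma too.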

How the results depend on the processing

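The counts of called members moved by more than 1.5 times under these settings. A minimum of 100 UMIs left 7 higher in the epithelial class, 5 lower in the stromal class and 0 lower in the Schwann class, and a 3-fold limit left 7 and 5 in the first pair. Without genes under 25% of their highest class there were 2 higher and 3 lower in the epithelium and 0 lower in the Schwann class. Cells thinned to 1000 UMIs gave 5 higher in the epithelium, 4 higher in the stroma and 0 lower in the Schwann class. Lower members in the Schwann class numbered 2 with a minimum of 5 UMIs and 0 with the stricter cell filter. Scaling by the median ratio gave 1 lower in the mural class. With no condition on the interval there were 1 lower in the mural and 1 higher in the Schwann class, and the mean of per-cell CPM gave 2 higher in the Schwann class. Over 75 ratios of members in a class, 670 of 689 recomputed values kept their direction and side of the limits, 13 lost the call and 5 gained it. Wnt16 in the epithelium (8 and 27 UMIs before thinning) was counted as reversed, at -0.046, in cells thinned to 1000 UMIs. The lowest value of Wnt10b there was the same. Few UMIs are left after such thinning and counts under 3 are set to 3, so this value does not show a change of direction. Wnt10a in the stroma (2 and 36 UMIs) was no longer called without sub-cluster S7, at a log2 ratio of 0.33. Leaving out sub-clusters was chosen after seeing the data. The cause of each shift was not tested. No paired analysis was possible because each group has 1 library, and none can be left out. Wnt2b, Wnt7a, Dkk1 and Sfrp5 fell short of the UMI minimum of the main counts in every class. The reason for their low UMI numbers was not tested.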
